A study of Homo sapiens with 2 samples.

Results

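The genes described here are 10 of the 58220 listed for C28/I2 cells, chosen by name for their place in the extracellular matrix. They are the matrix glycoproteins FN1, THBS2 and SPARC, the protease MMP9, the protease inhibitor TIMP2 with AC022966.2 on its opposite strand, the collagen-modifying enzyme P4HA2 with P4HA2-AS1 on its opposite strand, and the cartilage genes PRG4 and MATN1. C28/I2 is an immortalized line of human chondrocytes, cultured here in DMEM with serum. The cells were infected with a lentivirus carrying either a void control (shvoid, labelled WT) or the FGF9 hairpin shFGF9-D1 (labelled FGF9 knock down) at a multiplicity of infection of 10, and total RNA was taken 72 hours later. The sources used here do not describe the void construct further, and the knockdown rests on 1 hairpin. There was 1 library per condition, so no comparison has a replicate check, no test of the condition was made, and the intervals below cover counting error only. The genes were picked with their counts in these 2 libraries known, so their ratios are a description.

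Cartilage is mostly matrix. Chondrocytes secrete collagens, whose prolines are hydroxylated in the endoplasmic reticulum before the helix can form, and glycoproteins and proteoglycans that bind the collagen network to cells and to each other. Metalloproteinases cut this network and the tissue inhibitors of metalloproteinases (TIMPs) block them, a balance that is known to shift towards breakdown in osteoarthritis. Several of these genes overlap a gene read from the other strand, and an RNA made there is called antisense.

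Counts were few, with 519192 estimated counts in the shvoid library against 502774 in the shFGF9-D1 library, and 4000 genes reached 10 counts in at least 1 of them. These totals are counts assigned to genes, not reads sequenced. FGF9 had 0 counts in both, so the knockdown could not be checked, and the limit of 3 counts that a 0 allows, one-sided, was 5.78 and 5.97 CPM (counts scaled to library size). The defining markers of the labelled cell type were scarce: COL2A1, HAPLN1, COMP, COL11A1 and CNMD had 0 counts in both libraries, SOX9 had 2 and 1, and ACAN 5 and 0, and the 12 chondrocyte markers together had 52 and 44 counts, of which CHAD, MATN1 and PRG4 held most. Of the other marker lists, the 7 fibroblast genes had 19 and 28 counts, nearly all COL1A1, the 5 leukocyte genes 16 and 9, mostly CD68, and the 4 endothelial genes 7 and 5, while the 4 epithelial genes had 421 and 424, nearly all KRT8. KRT8 had 409 and 410 counts and shares 525 exon bases with KRT18 on the opposite strand, which had 12 and 14. CDH1 and EPCAM had 0 in both libraries. The part of other cell types in the results below was not tested. The kit kept the strand of the RNA. The sources used here do not say on which strand reads were counted, so the counts of all genes are uncertain. This holds also for genes without an opposite-strand partner. For each of the 10 genes that shares exon with an opposite-strand gene, the counts of both are shown.

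The overlap of these gene pairs can be read in their sequence, taken from GENCODE release 29 transcripts on GRCh38. AC022966.2 (ENSG00000267601, named AC022966.1 in that release) is annotated as 1 exon of 367 bases, and every base of it lies inside TIMP2 exon, 175 bases in coding sequence and 192 outside it. The end of the TIMP2 coding sequence is shown as it stands in the mRNA and as it stands in AC022966.2, at chr17:78855667-78855844, because the counts of this locus were listed almost wholly under AC022966.2. Capitals mark the TIMP2 stop codon and its complement.
TIMP2 mRNA, minus strand: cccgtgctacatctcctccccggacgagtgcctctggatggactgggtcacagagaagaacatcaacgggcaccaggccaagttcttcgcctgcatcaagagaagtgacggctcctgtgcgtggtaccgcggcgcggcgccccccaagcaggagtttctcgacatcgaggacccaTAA
AC022966.2 RNA, plus strand: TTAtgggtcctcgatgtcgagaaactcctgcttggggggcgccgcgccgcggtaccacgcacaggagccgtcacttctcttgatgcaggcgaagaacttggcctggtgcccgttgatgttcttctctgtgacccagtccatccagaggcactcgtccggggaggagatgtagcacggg
MMP9 and SLC12A5-AS1 share 430 exon bases, all of them in MMP9 coding sequence and all inside 1 of the 4 SLC12A5-AS1 exons, which runs across 4 MMP9 exons. The longest of the shared blocks, 151 bases at chr20:46014124-46014274, is shown since MMP9 is the protease with the highest ratio among those that reached 10 counts.
MMP9 mRNA, plus strand: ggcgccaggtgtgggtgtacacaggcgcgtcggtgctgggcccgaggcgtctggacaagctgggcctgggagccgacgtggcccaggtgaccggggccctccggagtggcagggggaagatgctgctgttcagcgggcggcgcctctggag
P4HA2-AS1 has 3 exons, of 212, 79 and 548 bases, and the exon of 548 bases lies wholly over P4HA2 exon outside its coding sequence. The other 291 bases are free of P4HA2 exon and lie between chr5:132184876 and chr5:132187373. They are shown joined, as in the RNA, with the exon of 79 bases in capitals.
P4HA2-AS1 RNA, plus strand: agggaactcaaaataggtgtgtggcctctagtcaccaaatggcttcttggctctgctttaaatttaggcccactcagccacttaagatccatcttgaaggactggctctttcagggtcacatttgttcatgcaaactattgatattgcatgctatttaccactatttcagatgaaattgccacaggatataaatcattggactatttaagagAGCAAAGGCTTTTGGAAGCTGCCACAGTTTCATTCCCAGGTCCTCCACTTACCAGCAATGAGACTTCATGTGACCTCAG

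In the 2 libraries, the 10 genes ranged from 0 to 799 counts. All 10 had a count in at least 1 library, 9 had one in both, and 8 reached 10 counts in at least 1 library. TIMP2 and P4HA2 were the 2 that did not. Together the 10 held 0.191% of all counts in either library. Of the 8 genes that could be compared, 6 had a higher point ratio in the shFGF9-D1 library and 2, FN1 and MATN1, a lower one. AC022966.2 is among the 6 by a log2 ratio of 0.000212 and turned to -0.04 with total counts, so it is better called level. Of all 4000 genes, 52.1% had a log2 ratio above 0. SPARC, P4HA2-AS1 and MMP9 were past 2-fold, all 3 higher. Of all 4000 genes with at least 10 counts, 17.0% were past 2-fold, 7.58% higher and 9.4% lower, and the median log2 ratio was 0.04. Where the interval also had to exclude equal levels, SPARC and P4HA2-AS1 remained of the 8, both higher, against 10.1% of all genes and 4.7% of all genes in the higher direction. These shares rise as counts fall: among genes with 10 to 19 counts in the higher library 28.4% were past 2-fold, falling to 15.7% at 20 to 49 counts, 8.95% from there to 99 and 3.93% at 100 or more. SPARC and P4HA2-AS1 are in the lowest of these classes and MMP9 is in the next. SPARC and P4HA2-AS1 reached 10 counts only in the shFGF9-D1 library, so the filter fixed their direction.

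**Figure D1:**
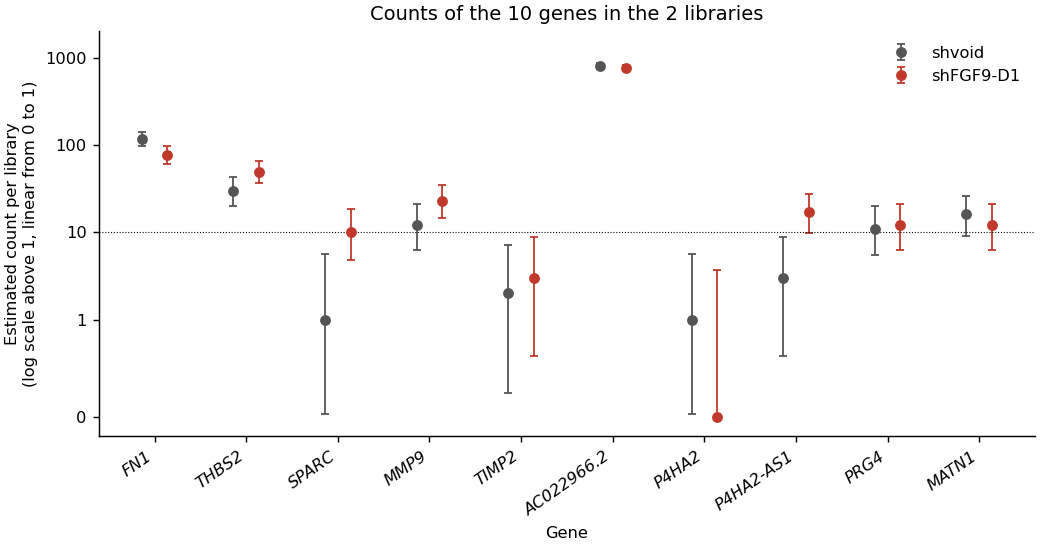
Estimated counts of the 10 genes (horizontal axis) in the shvoid (grey) and shFGF9-D1 (red) libraries, 1 library each and not scaled, on an axis that is logarithmic above 1 count and linear below it. Bars give the exact Poisson 95% interval of each count, and the dotted line marks 10 counts. AC022966.2 stands alone at 799 and 755 counts, TIMP2 and P4HA2 have at most 3, and the bars do not overlap for P4HA2-AS1.

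Of the glycoproteins, FN1 was lower and THBS2 and SPARC were higher in the shFGF9-D1 library. FN1 encodes fibronectin, the adhesive protein on which cells assemble matrix through integrins. FN1 (ENSG00000115414, chromosome 2 of GRCh38 from 215360440 to 215436172, minus strand) had 116 counts in the shvoid library (interval 95.9 to 139) and 77 in the shFGF9-D1 library (60.8 to 96.2), so the separate intervals touch. After TMM scaling, which sets the libraries level over most genes, the ratio was 1.42-fold lower (log2 ratio -0.51, interval -0.94 to -0.08). This interval excludes equal levels, and the ratio does not reach 2-fold. Of the 10 genes FN1 was the most counted of those that code for a protein, and no gene of the annotation shares exon with it on the opposite strand. Having no such gene does not settle on which strand the reads of FN1 were counted. FPKM, which is scaled by transcript length and library size, was 105 in the shvoid library and 54.0 in the shFGF9-D1 library, 1.94-fold lower. FN1 has 27 annotated transcripts, and its FPKM per count was 0.904 against 0.702, so the libraries also differed in how the authors' software converted FN1 counts to FPKM.

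THBS2 encodes thrombospondin 2, a matricellular protein that restrains vessel growth and takes part in collagen assembly. THBS2 (ENSG00000186340, chromosome 6 from 169215780 to 169254044, minus strand) had 30 counts in the shvoid library (interval 20.2 to 42.8) and 49 in the shFGF9-D1 library (36.3 to 64.8). The ratio was 1.73-fold higher (log2 ratio 0.79, interval 0.11 to 1.5), the nearest below 2-fold among the 8 genes. FPKM was 9.63 and 16.7, a factor of 1.74. The antisense gene within its span, BX322234.1, shares no exon base with it and had 0 counts in both libraries.

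SPARC, which encodes the collagen-binding protein osteonectin, had the highest ratio and the fewest counts of the 8. SPARC (ENSG00000113140, chromosome 5 from 151661096 to 151687165, minus strand) had 1 count in the shvoid library (interval 0.0253 to 5.57) and 10 in the shFGF9-D1 library (4.8 to 18.4). The ratio was 10.6-fold with an interval from 1.51 to 459, so its size is hardly set by these counts. FPKM was 4.43 and 12.0, which is 2.71-fold. FPKM per count was 4.43 for the 1 count in the shvoid library and 1.20 for each of the 10 in the other, which differ by a factor of 3.69. CTB-113P19.1 (CLMAT3 in GENCODE 29), on the opposite strand, shares 381 exon bases with SPARC, none of them coding. It had 7 counts in the shvoid library and 5 in the shFGF9-D1 library (log2 ratio -0.40, interval -2.40 to 1.47, which overlaps that of SPARC), and the pair summed to 8 and 15 counts (log2 ratio 0.99, interval -0.34 to 2.43). With the pair summed, the interval no longer excludes equal levels.

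**Figure D2:**
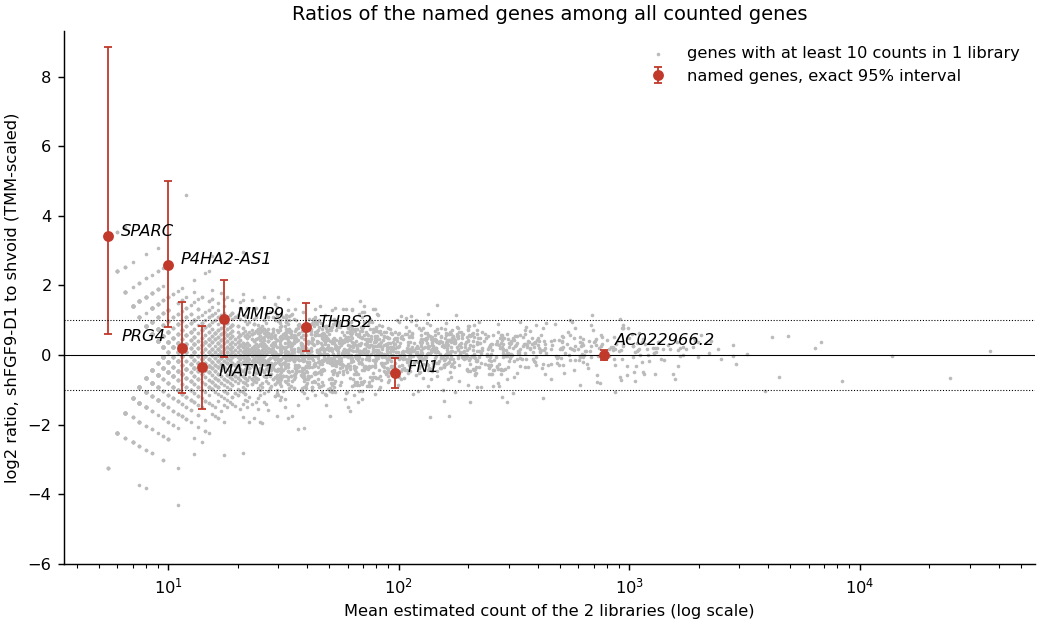
Log2 ratio of shFGF9-D1 to shvoid after TMM scaling (vertical axis) against the mean count of the 2 libraries (horizontal axis, logarithmic). Grey points are all other genes that reached 10 counts and were not at 0 in either library, red points are the 8 named genes that reached 10 counts, red bars are exact 95% intervals of counting error, and dotted lines mark 2-fold. SPARC (3.40) and P4HA2-AS1 (2.58) lie at the sparse left end where grey points spread widely, and AC022966.2 (0.00) lies on the line of equal levels.

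MMP9 encodes gelatinase B, a metalloproteinase that digests denatured collagen and type IV collagen. MMP9 (ENSG00000100985, chromosome 20 from 46008908 to 46016561, plus strand) had 12 counts in the shvoid library (interval 6.20 to 21.0) and 23 in the shFGF9-D1 library (14.6 to 34.5). The ratio was 2.03-fold (log2 ratio 1.02, interval -0.05 to 2.16), the nearest above 2-fold among the 8 genes, and its interval includes equal levels. With total counts in place of TMM the log2 ratio was 0.98, which is under 2-fold. FPKM was 7.04 and 15.4, a factor of 2.19. SLC12A5-AS1, opposite MMP9, had far more counts than MMP9 in both libraries, 320 and 294 (log2 ratio -0.04, interval -0.27 to 0.19). MMP9 thus held 3.61% of the counts of the pair in the shvoid library (interval 1.88 to 6.23) and 7.26% in the shFGF9-D1 library (4.65 to 10.7), and these intervals overlap. The summed pair had 332 and 317 counts, a ratio of 1.01. SLC12A5-AS1 also shares 197 exon bases with SLC12A5, with 27 and 23 counts. Of the 151-base block printed above and its 3 neighbours, which strand the sequenced RNA came from was not tested.

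TIMP2 encodes an inhibitor that binds metalloproteinases and, together with MMP14 at the cell surface, takes part in the activation of MMP2. TIMP2 (ENSG00000035862, chromosome 17 from 78852977 to 78925387, minus strand) had 2 counts in the shvoid library and 3 in the shFGF9-D1 library, at or under the limit of 3 counts in both, so no fold is given. AC022966.2 (chromosome 17 from 78855478 to 78855844, plus strand) had 799 counts (interval 745 to 856) and 755 (702 to 811). Its log2 ratio was 0.00 with an interval from -0.15 to 0.15, the narrowest of the 8. TIMP2 held 0.25% of the pair in the shvoid library (interval 0.0303 to 0.899) and 0.396% in the shFGF9-D1 library (0.0817 to 1.15). Per kb of annotated exon, TIMP2 had 0.355 counts in the shvoid library, over 5633 bases, and AC022966.2 had 2177, over 367 bases that TIMP2 exon covers as well. FPKM of AC022966.2 was 7416 in the shvoid library and 6469 in the shFGF9-D1 library, rank 21 and 22 of all genes, while by counts it ranked 98 and 110. FPKM of TIMP2 was 1.10 and 1.77. Other genes overlapping TIMP2 were low too. CEP295NL, on the TIMP2 strand with 198 shared exon bases, had 1 and 0 counts, and AC100788.2 and AC100788.1 had 9 and 1 and 4 and 1 counts without sharing an exon base.

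P4HA2 encodes a catalytic subunit of prolyl 4-hydroxylase, the enzyme that hydroxylates collagen prolines. P4HA2 (ENSG00000072682, chromosome 5 from 132191838 to 132295315, minus strand) had 1 count in the shvoid library and 0 in the shFGF9-D1 library, whose exact Poisson interval reaches 3.69 counts, so no fold is given. P4HA2-AS1 (ENSG00000237714, chromosome 5 from 132184876 to 132192808, plus strand) had 3 counts (interval 0.619 to 8.77) and 17 (9.90 to 27.2). The ratio was 6.0-fold higher in the shFGF9-D1 library with an interval from 1.73 to 31.9 (log2 ratio 2.58, interval 0.79 to 5.00). FPKM was 14.2 and 77.7, a factor of 5.48. The pair summed to 4 and 17 counts, a ratio of 4.50 (log2 ratio 2.17, interval 0.55 to 4.2). P4HA2 adds only 1 and 0 counts to this sum, so it is nearly the same data and no separate check of the direction. P4HA2-AS1 reached 10 counts only in the shFGF9-D1 library, so the filter fixed its direction. Of the P4HA2-AS1 exon bases, 65.3% are also P4HA2 exon, and the counts do not say whether the reads lay in these or in the 291 bases printed above.

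PRG4 and MATN1 are the 2 members made mainly by cartilage and joint lining. PRG4 encodes lubricin, which coats and lubricates joint surfaces. PRG4 (ENSG00000116690, chromosome 1 from 186296279 to 186314562, plus strand) had 11 counts in the shvoid library (interval 5.49 to 19.7) and 12 in the shFGF9-D1 library (6.20 to 21.0), a log2 ratio of 0.21 with an interval from -1.10 to 1.53. MATN1 encodes matrilin 1, an adaptor between collagen fibrils and aggrecan. MATN1 (ENSG00000162510, chromosome 1 from 30711277 to 30723587, minus strand) had 16 counts (interval 9.15 to 26.0) and 12 (6.20 to 21.0), a log2 ratio of -0.33 with an interval from -1.54 to 0.84. Both intervals include equal levels and both also include a change of 1.5-fold either way, so neither a difference nor its absence was detectable at these counts. Both genes share coding exon with an opposite-strand gene that had fewer counts. TPR, a nuclear pore protein made in most cells, shares 670 exon bases with PRG4, 419 of them in PRG4 coding sequence, and had 3 counts in each library. MATN1-AS1 shares 836 exon bases with MATN1, of which 294 are outside MATN1 coding sequence, and had 2 and 0 counts. PRG4 held 78.6% and 80.0% of its pair and MATN1 88.9% and 100%, shares that rest on at most 18 counts.

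**Figure D3:**
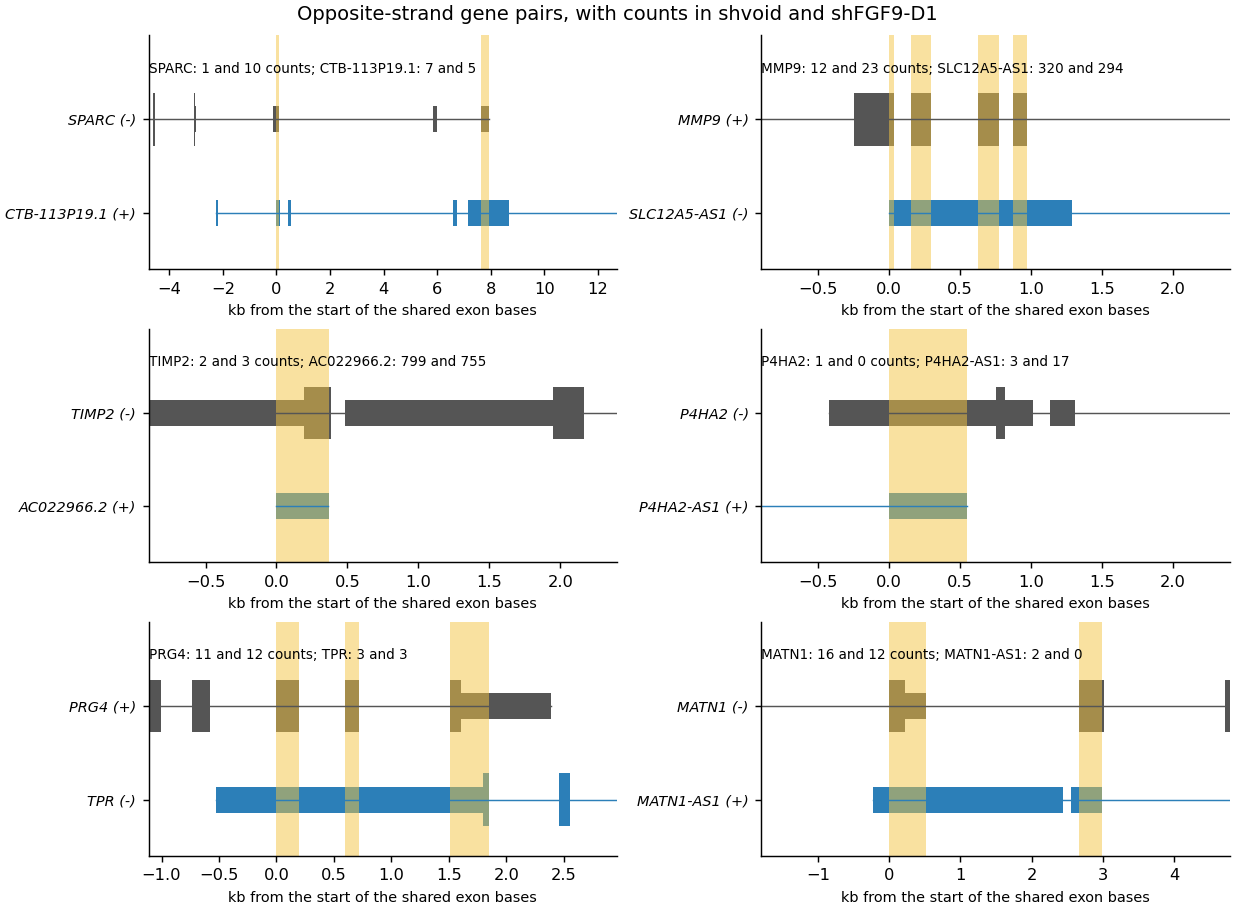
Exons of 6 of the genes (grey) and of the gene opposite each (blue), drawn to scale within each panel as distance in kb from the start of the exon bases they share (yellow), with chromosome position increasing to the right and each panel cut to a window around the shared bases. Tall boxes are coding sequence, low boxes other exon, lines introns, signs in brackets the strand, and the counts are those of the shvoid and then the shFGF9-D1 library. AC022966.2, with 799 and 755 counts, lies wholly within TIMP2 exon, and in the MMP9 panel 1 exon of SLC12A5-AS1 runs across 4 MMP9 exons.

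The 6 pairs thus fell on different sides. The opposite-strand gene had more counts than the named gene for TIMP2, MMP9 and P4HA2 in both libraries, and fewer for PRG4 and MATN1 in both. SPARC held 12.5% of its pair in the shvoid library (interval 0.316 to 52.7) and 66.7% in the shFGF9-D1 library (38.4 to 88.2), intervals that overlap. Over all 3350 nuclear coding genes that share exon with an opposite-strand gene and whose pair reached 10 counts in the shvoid library, the opposite gene had more counts in 60.9% and the median share of the coding gene was 27.3%. In the shFGF9-D1 library these were 61.0% and 26.4% over 3250 genes. For this count the opposite gene with the most counts was taken. FN1 and THBS2, which have no exon-sharing partner, were the most counted of the coding members.

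**Figure D4:**
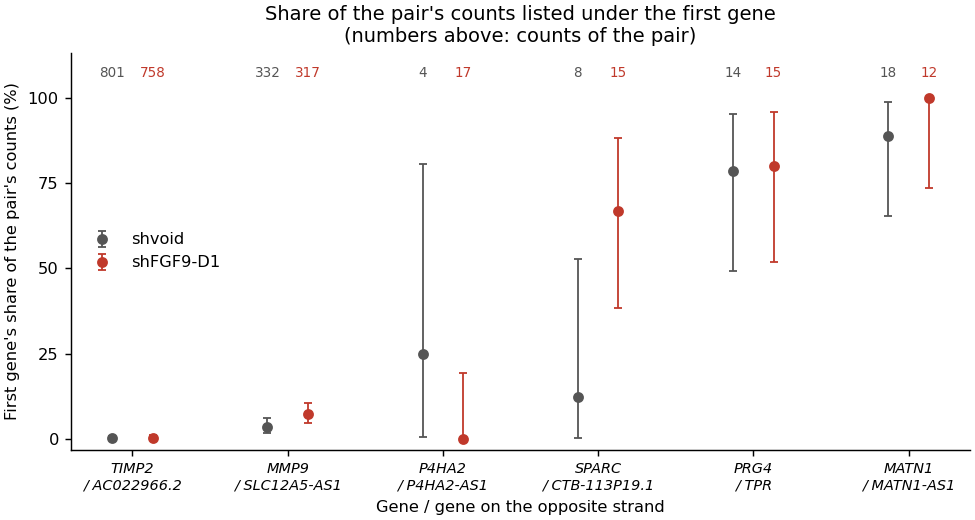
Share of the pair's counts listed under the named gene (vertical axis, percent) for the 6 pairs, in the shvoid (grey) and shFGF9-D1 (red) libraries, with exact Clopper-Pearson 95% intervals of counting error. Numbers along the top are the counts of the pair. TIMP2 and MMP9 lie near 0 with short bars (0.25% and 3.61% in the shvoid library), PRG4 and MATN1 lie above 75%, and the bars of P4HA2 and SPARC are long because their pairs hold 4 and 8 counts in the shvoid library.

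Levels between genes can be set side by side as FPKM, which are per length. FPKM per count did not follow exon length alone. In the shvoid library it was 4.43 for SPARC (1 count, 4831 exon bases) and 0.552 for TIMP2 (2 counts, 5633). In the shvoid library AC022966.2 was highest at 7416 FPKM, 70.7 times FN1 at 105, from 799 counts against 116. MATN1 (18.5), P4HA2-AS1 (14.2), PRG4 (11.3), THBS2 (9.63), MMP9 (7.04), SPARC (4.43), P4HA2 (3.84) and TIMP2 (1.10) followed. In the shFGF9-D1 library AC022966.2 was at 6469 FPKM, P4HA2-AS1 at 77.7 stood above FN1 at 54.0, and THBS2 (16.7), MMP9 (15.4), PRG4 (12.99), SPARC (12.0), MATN1 (11.9) and TIMP2 (1.77) followed, with P4HA2 listed at 0. Below FN1 in the shvoid library each level rests on 30 counts or fewer, with no spread over samples, so the order of neighbours there is not resolved. Across the 3043 genes with at least 10 counts in both libraries, the log2 ratio of FPKM and that of counts differed by a median of 0.101, and by 1 or more in 1.61% of genes. AC022966.2 was 1.15-fold lower by FPKM and level by counts, and MATN1 was 1.55-fold lower by FPKM and 1.26-fold lower by counts.

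**Figure D5:**
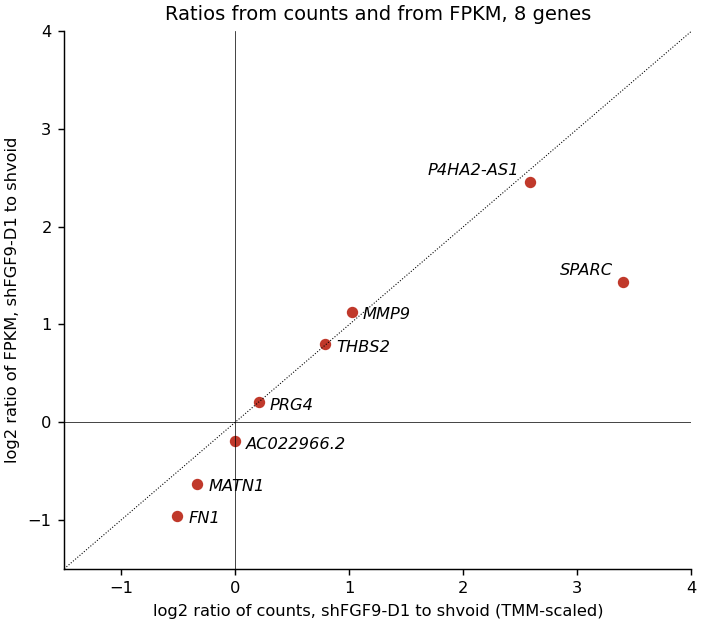
Log2 ratio of FPKM (vertical axis) against log2 ratio of TMM-scaled counts (horizontal axis), shFGF9-D1 to shvoid, for the 8 genes that reached 10 counts, with the dotted line marking equal ratios. SPARC lies far below the line, at 2.71-fold by FPKM and 10.6-fold by counts, FN1 lies below it at 1.94-fold and 1.42-fold lower, and MMP9, THBS2 and PRG4 lie close to it.

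Around these members, 171 matrix genes in 7 lists were mostly too rarely counted to compare, with 31 of them (18.1%) at 10 counts or more, against 13.5% of all coding genes. Their median log2 ratio was 0.22, beside 0.04 for all genes. Of these 31, 6 are the named members, and 21 (67.7%) had a log2 ratio above 0, beside 52.1% of all genes. Past 2-fold were 5 (16.1%, beside 17.0% of all genes), of which SPARC, MMP9, COL5A2 and SERPINH1 were higher and THBS1 was lower. SPARC, COL5A2, SERPINH1, COL6A1, COL4A2, TGFBI, P4HB and ADAM17 reached 10 counts only in the shFGF9-D1 library. THBS1 and FBLN1 did so only in the shvoid library. The filter thus fixed the direction of all these genes. The 67.7% and the median of 0.22 include them and are a description only. An opposite-strand gene shared exon with 21 of the 31. The one that shared most exon bases had at least as many counts in both libraries for 7 of them. These are MMP9, NID2, COL18A1, ADAM17, P4HB, THBS3 and ADAMTSL4. A share over all genes was not taken by this rule, which differs from that of the 60.9% above. It also leaves out list genes under 10 counts, such as TIMP2, so the 7 cannot be compared with all genes. Values of single genes below are counts in the shvoid and then the shFGF9-D1 library. Of 36 adhesive and matricellular glycoproteins, 9 reached 10 counts, with 4 point ratios higher and 5 lower and a median log2 ratio of -0.18. THBS1, thrombospondin 1, a relative of THBS2, had 14 and 5 counts (log2 ratio -1.40, interval -3.23 to 0.15), so its point ratio was on the other side from that of THBS2. LTBP2, which binds the microfibrils of the matrix, had 59 and 48 counts, and THBS3 18 and 15, against 30 and 28 for AC234582.1 opposite THBS3. NID2, a basement membrane protein, had 13 and 14, FBLN1 13 and 8, and TGFBI 7 and 10. Their intervals include equal levels. NID2 also lies opposite C14orf166, which had 114 and 241 counts.

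Of 17 fibrillar and other collagen genes, whose chains P4HA2 and its relatives hydroxylate, 7 reached 10 counts. All 7 point ratios were above 0 on the log2 scale, as were 52.1% of all genes, with a median log2 ratio of 0.50, and each of the 7 intervals included equal levels. COL6A1, COL4A2 and COL5A2 reached 10 counts only in the shFGF9-D1 library, so the filter fixed their direction. COL18A1, a basement membrane collagen, had 47 and 57 counts, and SLC19A1 on its opposite strand had 415 and 436. COL1A1, the main chain of type I collagen, had 19 and 26 counts, COL6A3, COL6A1 and COL6A2, the chains of type VI collagen around cells, had 21 and 21, 9 and 12, and 10 and 11, and COL4A2 had 8 and 12. COL6A3 was the lowest of the 7. Its counts were equal, so its log2 ratio of 0.08 is only the shift that TMM scaling makes in all ratios. COL5A2, a chain of the type V collagen that starts fibrils, had 3 and 10 (log2 ratio 1.82, interval -0.14 to 4.32) and was past 2-fold.

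The list of 23 matrix metalloproteinases had 4 genes at 10 counts or more, and their median log2 ratio was 0.60. MMP24, a membrane-type enzyme, had 87 and 126 counts (log2 ratio 0.62, interval 0.21 to 1.03), and MMP19 had 59 and 83 (0.57, interval 0.08 to 1.08). Both intervals exclude equal levels and neither ratio reaches 2-fold. MMP24-AS1, opposite MMP24, had 13 and 27 counts, and TMEM198B, opposite MMP19, 5 and 9. MMP25, another membrane-type enzyme, had 45 and 34 counts, and MMP25-AS1 opposite it 14 and 3. MMP2, which TIMP2 and MMP14 act on, had 0 and 1, and MMP13, the main collagenase of osteoarthritic cartilage, had 0 in both. Of 30 ADAMTS and related proteases, ADAMTSL4 with 29 and 20 counts and ADAM17, the enzyme that sheds tumour necrosis factor, with 7 and 13 were the 2 that reached 10. IAH1, opposite ADAM17, had 238 and 436, and ADAMTSL4-AS1 had 29 and 25. The aggrecanase ADAMTS5 had 0 and 1. None of 12 protease inhibitors reached 10 counts, the most being 4, and the list summed to 7 and 17 counts. With so few counts per gene, no fold is given for this sum.

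The list of 21 genes for collagen modification had 6 at 10 counts or more, and their median log2 ratio was 0.20. SERPINH1, the collagen chaperone HSP47, had 4 and 12 counts (log2 ratio 1.67, interval -0.06 to 3.76) and was past 2-fold, the only one of these 6. P3H3, a prolyl 3-hydroxylase relative under the minimum, had 8 and 0 counts, in the other direction. LOXL3 and LOXL1, lysyl oxidases that cross-link collagen, had 67 and 53 and 16 and 17 counts, PLOD3, a lysyl hydroxylase, 52 and 55, and CRTAP 20 and 23. HTRA2, opposite LOXL3, had 27 and 37 counts, and LOXL1-AS1 had 14 and 8. P4HB, the subunit that prolyl 4-hydroxylase shares with P4HA2, had 9 and 10 counts (log2 ratio 0.23, interval -1.22 to 1.71), while AC145207.3 on its opposite strand had 718 and 1167, a pairing like that of TIMP2 and AC022966.2 in that the antisense gene holds nearly all counts. Of 32 cartilage genes, PRG4, MATN1 and CHAD reached 10 counts and 16 had 0 in both libraries. CHAD, chondroadherin, had 17 and 16 counts.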

How the data were processed

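RNA-seq of C28/I2 cells was used, 1 library for shvoid and 1 for shFGF9-D1. The tools named in the submitters' processing notes are HISAT2, Cuffdiff, Cufflinks 2.2.1 and bcl2fastq 2.1.7, and the build is GRCh38.p14. Annotation release, filters and strand setting were not given in the sources used here. Per gene, the authors deposited estimated counts, which are not scaled between libraries. The deposited FPKM are scaled by library size and transcript length.

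The 10 members and the gene lists were chosen with earlier results of these data known. Estimated counts were rounded to whole numbers, which moved members by at most 0.00276, and TMM factors (1.01 and 0.988) came from edgeR 4.0.16 in R 4.3.3. Ratios have exact Clopper-Pearson 95% intervals and counts exact Poisson ones (scipy 1.17.1). Genes were compared at 10 counts in at least 1 library and called past 2-fold. Where neither count exceeded 3, a fold was left out. The code was tested on simulated data. Coordinates, strands and exon overlap come from GENCODE release 29, matched by identifier for 57882 of 58220 genes and all 10 members. The rule for named genes took the members, opposite-strand genes that share exon with a member and reached 10 counts, FGF9, and up to 8 genes of each list that reached 10 counts. Marker genes come from lists of cell type markers, of which those named were picked after their values were seen. Other genes outside the rule, among them opposite-strand genes under 10 counts or opposite a list gene, neighbouring genes, TGFBI, P3H3, MMP2, MMP13 and ADAMTS5, were also named after their values were seen. The alternatives tried were other scalings (total counts, size factors of DESeq2 1.42.0), other minimums on counts, FPKM with a pseudocount of 1 or 0.1, and summed pairs.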

Additional observations from a re-analysis of the deposited data

How the results depend on the processing

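No paired analysis was possible because there was 1 library per condition, and for the same reason no replicate could be left out. The share of all genes past 2-fold was 17.0% with at least 10 counts, 27.4% with at least 5, 10.4% with at least 20 and 56.8% with no minimum, so it depends on how low the counts may be. It was 51.4% from FPKM with a pseudocount of 1 and at least 1 FPKM, where both the measure and the filter differ. Of 38 alternative ratios of the 8 members, 35 stayed within the counting interval. The other scalings could not leave it, as they move log2 ratios by less than the reach of every interval. No alternative changed the sign of SPARC or P4HA2-AS1, but the filter had fixed their direction, so this is no check of it. The alternatives that left the interval were FN1 by FPKM with a pseudocount of 0.1 (-0.95, against -0.51) and AC022966.2 by FPKM with a pseudocount of 1 or 0.1 (-0.20 in both, against 0.00). The cause was not tested. SPARC had a log2 ratio of 1.26 by FPKM with a pseudocount of 1, 1.42 with 0.1 and 0.99 summed with its partner, against 3.40. Summed with its partner MMP9 was at 0.02, and with DESeq2 size factors at 0.94, under 2-fold. The median of the metalloproteinase list was 1.21 with no minimum on counts, against 0.60. Another scaling moved all log2 ratios by -0.04 (total counts) or -0.08 (DESeq2). The DESeq2 size factors were 1 in both libraries, so that setting equals unscaled counts. With counts this few, 2 of the 10 members could not be compared.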
